A study of Mus musculus with 12 samples.

Results

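The 40 genes described here encode proteins that take fatty acids into the heart muscle cell and oxidise them, together with nuclear receptors that control their transcription. They were chosen by name and role, and a gene was kept when a probe carrying its symbol had a detection p-value under 0.01 on at least 3 of the 12 arrays. Of the 40, 38 had a named probe on the array and 36 were kept, out of 8746 named genes kept in all. Acsl1, a synthetase that activates long-chain fatty acids, and Ucp2, an uncoupling protein, had no probe under those symbols in the probe table used here. Cpt1a, the liver form of the first carnitine palmitoyltransferase, had 2 probes that were detected on 0 of 12 arrays, and Rxra, the retinoid receptor that pairs with Ppara, was detected on 1 array. No value is given for these 4 genes.

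Fatty acids are the main fuel of the adult heart. They enter the cell through membrane transporters, are bound to coenzyme A, cross the mitochondrial membranes as carnitine esters and are then shortened by repeated cycles of dehydrogenation, hydration, a second dehydrogenation and thiolysis. The receptors Ppara, Esrra and Esrrg and the coactivator Ppargc1a are known to drive transcription of many of these enzymes in heart, and lower expression of the pathway is a familiar feature of the pressure-overloaded heart.

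Left ventricular cardiomyocytes were isolated from male C57Bl6/J mice, and their RNA was measured on Illumina bead arrays. Pups aged 10 days were infected with AAV9, an adeno-associated virus, that carried either a scrambled hairpin (shControl) or hairpin number 1 against Uhrf1 (shUhrf1), and surgery followed 2 months later. Surgery was either a sham operation or transverse aortic constriction (TAC), which narrows the aorta and loads the left ventricle with pressure. The titles place the cells at 1 week, the age label reads 8 weeks, and the promoter that drove the hairpins is not given in the sources used here. The 4 groups were thus sham shControl, TAC shControl, sham shUhrf1 and TAC shUhrf1, with 3 arrays each, and all mice including the controls had been infected. Whether the triplicate arrays hold RNA of different mice is not stated. The p-values therefore rest on array-to-array spread alone, and that spread may be technical.

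Each array detected between 12309 and 14908 of 45281 probes, and 35 or 36 of the kept members were detected on each. Uhrf1, which encodes a reader of hemimethylated DNA and is the target of the hairpin, was detected on 0 of 3 sham shControl, 3 of 3 TAC shControl, 0 of 3 sham shUhrf1 and 2 of 3 TAC shUhrf1 arrays. After TAC it read 6.14, 7.11 and 6.89 with shControl and 4.68, 5.34 and 6.06 with shUhrf1, a log2 difference of -1.35 ± 0.30 (SE). The probe was kept through the TAC shControl arrays, where it is high. The difference is therefore a description of values and not a test of the knockdown. A second Uhrf1 probe was detected on 0 arrays, with means of 4.49 in TAC shControl and 4.43 in TAC shUhrf1. In sham cells the knockdown could not be measured. All 11 cardiomyocyte markers with a probe were detected on every array. Markers of other heart cells were present as well: of 11 fibroblast markers with a probe, sham shControl arrays showed 5 on 1 array or more and TAC shControl arrays 9.

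Values below are log2 intensities after background correction and quantile normalization, listed in the order of arrays 1 to 3 of a group. A difference is given on the same log2 scale as TAC minus sham, or shUhrf1 minus shControl, ± SE. A gene passed when its limma p-value, adjusted by Benjamini-Hochberg over all 15118 kept probes, was under 0.05. A gene with several probes is represented by the brightest, and levels are compared between groups and never between genes. RNA was pooled over many cells, so fewer cells of a type and less RNA per cell cannot be told apart.

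With TAC, fatty acid genes were lower in cardiomyocytes that carried the scrambled hairpin. In shControl cells 11 of the 36 measured members fell and 0 rose. Of all genes 18.9% changed, made up of 7.47% downward and 11.4% upward. The fall thus took in 30.6% of the members, and it included the transporter Slc27a1, the thioesterase Acot1, the receptors Ppara and Esrrg, the acetyltransferase Crat, the dehydrogenase Acads, the isomerases Ech1 and Eci1, the reductase Decr1, the electron carrier subunit Etfb and the carboxylase Acacb. The median difference was -0.33 over the members and -0.04 over all genes, and 33 of the 36 values lay below 0. All 3 TAC arrays lay below all 3 sham arrays for 19 members, or 52.8%, against 19.3% of all genes, and above them for 0, against 19.2%. The count rested on few arrays: 3 members passed without sham shControl array 2, sham shControl array 3 or TAC shControl array 3, 6 without sham shControl array 1 and 7 without TAC shControl array 2. Of the 20 alternatives tried, Acot1 and Slc27a1 passed in 20, Ppara in 18, Etfb in 16, Ech1 and Decr1 in 15, Acads in 12, Crat in 11, Eci1 in 10, Acacb in 8 and Esrrg in 7, each with a value below 0 in all 20. With median scaling of the arrays instead of quantiles, which put the median of all genes at 0.19, 4 members fell and the members' median was -0.35.

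With the hairpin against Uhrf1, TAC lowered 2 members, Crat and Etfb, or 5.56%, and raised 0. Of all genes 5.55% changed, made up of 1.59% downward and 3.96% upward. The median difference was -0.25 over the members and 0.01 over all genes, and 30 of the 36 values lay below 0. With median scaling the members' median turned to 0.14, which lay below the all-gene median of 0.45. The groups did not overlap downward for 14 members, or 38.9%, against 13.2% of all genes, and upward for 2, Pdk4 and Acot13, against 15.6%. With TAC shUhrf1 array 1 or array 3 left out, 0 members passed, and the same held for each of the sham shUhrf1 arrays 2 and 3. Leaving out array 2 of the TAC shUhrf1 group left 1, Crat. Crat passed in 14 and Etfb in 12 of the 20 alternatives. The TAC comparisons within each hairpin share no arrays: 29 members lay below 0 in both, 2 lay above 0 in both and 5 had opposite signs. Averaged over both hairpins, 13 members fell and 0 rose with TAC, or 36.1% of the members. Of all genes 27.2% changed, made up of 11.7% downward and 15.5% upward. All 6 TAC arrays lay below all 6 sham arrays for 7 members, or 19.4%, against 4.01% of all genes.

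**Figure D1:**
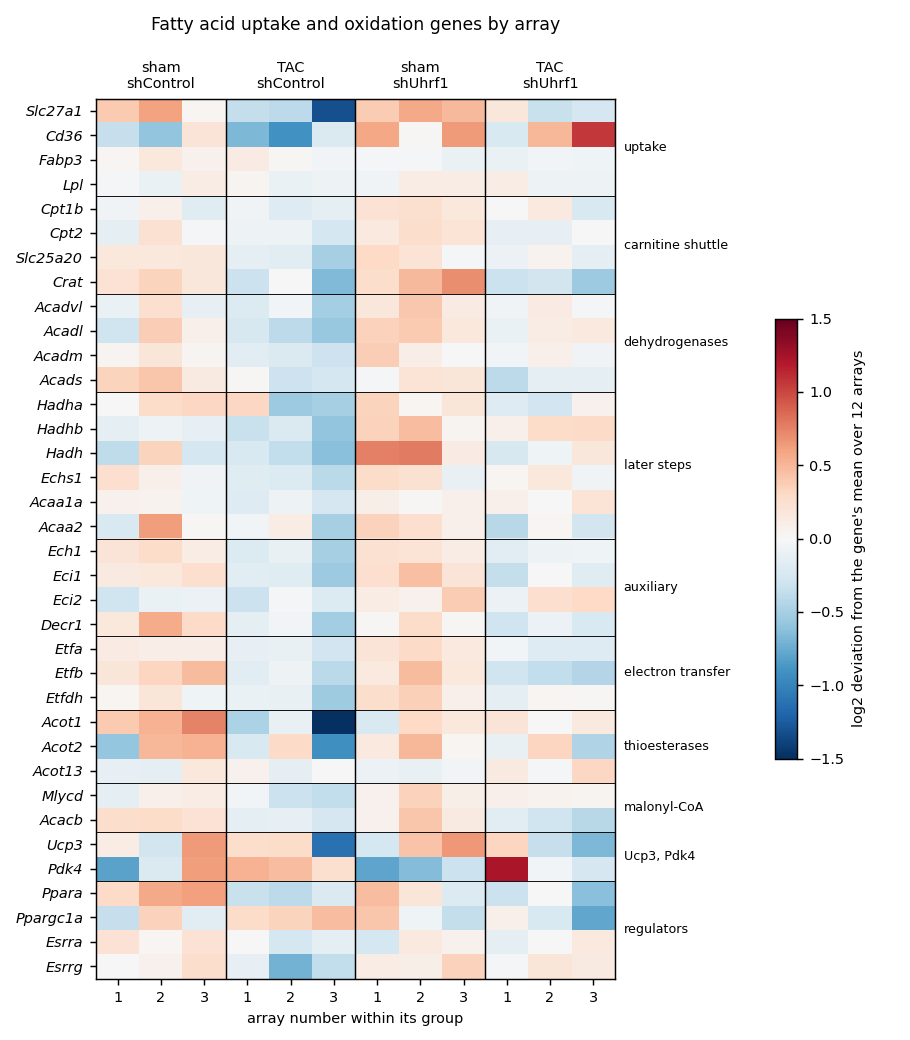
Log2 intensity of each of the 36 measured members (rows) on each of the 12 arrays (columns), as the deviation from that gene's mean over all arrays; colour gives the deviation. The mean deviation over the members ran from -0.42 to -0.12 on the TAC shControl arrays, from -0.01 to 0.18 on the sham shControl arrays, from 0.13 to 0.23 on the sham shUhrf1 arrays and from -0.09 to -0.02 on the TAC shUhrf1 arrays.

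Of the 4 measured uptake genes, Slc27a1 passed with TAC in shControl, and differences between the genes were not tested. Slc27a1, a fatty acid transport protein of the plasma membrane, read 8.73, 8.94 and 8.37 in sham shControl, 7.98, 7.95 and 7.01 in TAC shControl, 8.72, 8.91 and 8.83 in sham shUhrf1 and 8.51, 8.00 and 8.09 in TAC shUhrf1. TAC arrays lay below sham arrays within each hairpin, and TAC shControl array 3 was the lowest of the 12. The difference was -1.03 ± 0.24 in shControl (adjusted p = 0.0127) and -0.62 ± 0.24 in shUhrf1, which did not pass (adjusted p = 0.159). The responses differed by 0.41 with a 95% interval of -0.34 to 1.16, so the data do not settle whether the hairpin altered the fall.

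Fabp3, the fatty acid binding protein of heart cytoplasm, read 14.85, 14.97 and 14.88 in sham shControl, 14.95, 14.83 and 14.78 in TAC shControl, 14.81, 14.80 and 14.72 in sham shUhrf1 and 14.73, 14.78 and 14.76 in TAC shUhrf1. Its probe ranked between 3 and 22 in brightness among all probes on every array, where quantile normalization ties a value to its rank. The span of 0.26 over the 12 arrays and the TAC differences of -0.05 ± 0.12 in shControl and -0.02 ± 0.12 in shUhrf1 are therefore no measure of stability. With median scaling the differences were -0.18 and -0.05, and neither passed.

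Lpl, the lipase that frees fatty acids from circulating lipoproteins, gave different answers on its 2 kept probes. The brighter probe differed with TAC by -0.04 ± 0.13 in shControl and -0.08 ± 0.13 in shUhrf1, but it was the brightest of all probes on 4 of the 12 arrays, where quantile normalization assigns a common top value of 15.08. The dimmer probe read 7.62, 7.10 and 7.30 in sham shControl, 6.02, 5.79 and 6.54 in TAC shControl, 6.64, 6.75 and 6.55 in sham shUhrf1 and 5.17, 5.61 and 6.06 in TAC shUhrf1. On that probe TAC arrays lay below sham arrays within each hairpin. It fell by 1.22 in shControl (adjusted p = 0.0045) and by 1.04 in shUhrf1 (adjusted p = 0.0262), and why the probes disagree was not tested.

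Cd36, the membrane receptor that carries much of the fatty acid flux into heart muscle, lay near the detection limit on this array. It was detected on 1 of 3 arrays in each shControl group and on 3 of 3 in each shUhrf1 group, so that it was kept through the shUhrf1 arrays. The values were 4.98, 4.73 and 5.51 in sham shControl, 4.65, 4.41 and 5.10 in TAC shControl, 5.90, 5.34 and 5.96 in sham shUhrf1 and 5.10, 5.82 and 6.38 in TAC shUhrf1. The hairpins overlapped in both surgeries, and TAC moved Cd36 by -0.35 ± 0.31 in shControl and 0.03 ± 0.31 in shUhrf1.

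In the carnitine shuttle Crat fell in both hairpins, while the long-chain transferases Cpt1b and Cpt2 did not pass on their brightest probes. Crat, which transfers acetyl groups between carnitine and coenzyme A, read 10.75, 10.88 and 10.70 in sham shControl, 10.21, 10.53 and 9.87 in TAC shControl, 10.80, 11.02 and 11.24 in sham shUhrf1 and 10.21, 10.26 and 9.99 in TAC shUhrf1. All 6 TAC arrays lay below all 6 sham arrays. The difference was -0.57 ± 0.18 in shControl (adjusted p = 0.0399) and -0.87 ± 0.18 in shUhrf1 (adjusted p = 0.0174), and the responses differed by -0.29 with a 95% interval of -0.83 to 0.24. Both other kept Crat probes lay below 0 in both hairpins without passing, at -0.39 and -0.70 in shControl and -0.84 and -0.67 in shUhrf1.

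Cpt1b, the muscle form of the outer-membrane palmitoyltransferase and the gate of the pathway, read 12.52, 12.65 and 12.39 in sham shControl, 12.52, 12.37 and 12.42 in TAC shControl, 12.79, 12.82 and 12.73 in sham shUhrf1 and 12.57, 12.72 and 12.34 in TAC shUhrf1. Sham and TAC arrays overlapped in shControl and not in shUhrf1. The TAC differences were -0.08 ± 0.13 and -0.24 ± 0.13, and neither passed (adjusted p = 0.723 and 0.33). Slc25a20, the carrier that exchanges acylcarnitine across the inner membrane, read 12.45 on each sham shControl array against 12.14, 12.13 and 11.79 in TAC shControl. In shUhrf1 it read 12.59, 12.49 and 12.26 after sham surgery and 12.20, 12.34 and 12.15 after TAC. It missed the threshold in shControl at -0.43 ± 0.14 (adjusted p = 0.0511) and fell over both hairpins by 0.33 (adjusted p = 0.0297). Cpt2, the inner-membrane transferase, differed by -0.16 ± 0.13 and -0.28 ± 0.13, and 1 of its other 2 kept probes passed in shControl (-0.49 ± 0.14, adjusted p = 0.0338) and the other in shUhrf1 (-0.60 ± 0.15, adjusted p = 0.0354). Over both hairpins these 2 Cpt2 probes fell by 0.43 (adjusted p = 0.00926) and 0.39 (adjusted p = 0.016), against -0.22 ± 0.09 on the brightest probe (adjusted p = 0.0997).

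The 4 acyl-CoA dehydrogenases, which take chains of decreasing length, all had TAC differences below 0 in both hairpins, and 1 of the 4 passed in shControl. Acads, for short chains, read 10.65, 10.73 and 10.45 in sham shControl, 10.34, 10.0036 and 10.06 in TAC shControl, 10.30, 10.52 and 10.50 in sham shUhrf1 and 9.92, 10.18 and 10.17 in TAC shUhrf1. The groups did not overlap within either hairpin. Acads fell by 0.48 in shControl (adjusted p = 0.0386) and was at -0.35 ± 0.15 in shUhrf1 (adjusted p = 0.175).

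Acadm, for medium chains, read 14.23, 14.38 and 14.23 in sham shControl, 14.03, 13.97 and 13.89 in TAC shControl, 14.57, 14.30 and 14.19 in sham shUhrf1 and 14.15, 14.27 and 14.15 in TAC shUhrf1. Its TAC arrays lay below sham arrays in shControl and overlapped them in shUhrf1, at -0.32 ± 0.13 against -0.16 ± 0.13, and neither difference passed. Acadvl, for very long chains, read 12.84, 13.18 and 12.81 in sham shControl, 12.74, 12.90 and 12.43 in TAC shControl, 13.10, 13.34 and 13.05 in sham shUhrf1 and 12.88, 13.06 and 12.91 in TAC shUhrf1. The groups overlapped within each hairpin, at -0.26 ± 0.16 and -0.22 ± 0.16. Acadl, for long chains, read 10.50, 11.15 and 10.87 in sham shControl, 10.55, 10.40 and 10.22 in TAC shControl, 11.14, 11.18 and 10.95 in sham shUhrf1 and 10.69, 10.90 and 10.94 in TAC shUhrf1. It fell over both hairpins by 0.35, close to the threshold (adjusted p = 0.0483), a call that held in 4 of 19 alternatives.

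Of the 6 hydratase, hydroxyacyl dehydrogenase and thiolase genes, 0 passed in either TAC comparison on their brightest probes. Over both hairpins, other kept probes of Echs1 and Acaa2 passed as lower with TAC, and that of Echs1 was dim, with a mean of 5.49. Hadha, the alpha subunit of the mitochondrial trifunctional protein, read 6.11, 6.38 and 6.42 in sham shControl, 6.42, 5.57 and 5.62 in TAC shControl, 6.45, 6.14 and 6.29 in sham shUhrf1 and 5.92, 5.82 and 6.18 in TAC shUhrf1. The groups overlapped, at -0.43 ± 0.21 in shControl and -0.32 ± 0.21 in shUhrf1. The other 5, the beta subunit Hadhb, the hydroxyacyl dehydrogenase Hadh, the hydratase Echs1 and the thiolases Acaa1a and Acaa2, had TAC differences between -0.36 and -0.20 in shControl and between -0.59 and 0.03 in shUhrf1.

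The 4 auxiliary enzymes reshape unsaturated chains so that they can enter the cycle. In shControl 3 of the 4 fell with TAC, against 7.47% of all genes. Ech1, a dienoyl-CoA isomerase, read 14.47, 14.56 and 14.40 in sham shControl, 14.08, 14.18 and 13.78 in TAC shControl, 14.51, 14.48 and 14.40 in sham shUhrf1 and 14.11, 14.21 and 14.22 in TAC shUhrf1. Eci1, an enoyl-CoA isomerase, read 12.72, 12.74 and 12.84, then 12.42, 12.40 and 12.04, then 12.84, 13.03 and 12.78, and last 12.23, 12.58 and 12.41 in the same order of groups. Decr1, the dienoyl-CoA reductase, read 10.62, 11.02 and 10.74, then 10.32, 10.42 and 9.94, then 10.48, 10.73 and 10.48, and last 10.16, 10.38 and 10.23. For each of these 3 genes all 6 TAC arrays lay below all 6 sham arrays. In shControl Ech1 fell by 0.47 (adjusted p = 0.03), Eci1 by 0.48 (adjusted p = 0.0412) and Decr1 by 0.57 (adjusted p = 0.0294). In shUhrf1 the values were -0.28, -0.47 and -0.31, and 0 passed, with Eci1 nearest (adjusted p = 0.0839). Eci2, another enoyl-CoA isomerase, did not move with TAC by more than its error, at -0.03 ± 0.15 in each hairpin.

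The electron transfer flavoprotein passes electrons from the dehydrogenases to the respiratory chain. Its beta subunit, Etfb, read 13.92, 14.06 and 14.21 in sham shControl, 13.58, 13.66 and 13.34 in TAC shControl, 13.89, 14.21 and 13.90 in sham shUhrf1 and 13.44, 13.37 and 13.30 in TAC shUhrf1. All 6 TAC arrays lay below all 6 sham arrays. The fall was 0.53 ± 0.14 in shControl (adjusted p = 0.0237) and 0.63 ± 0.14 in shUhrf1 (adjusted p = 0.0283), and the responses differed by -0.09 with a 95% interval of -0.53 to 0.35. The other kept Etfb probe fell as well, by 0.75 (adjusted p = 0.00705) and 0.65 (adjusted p = 0.035).

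Etfa, the alpha subunit, read 14.29, 14.26 and 14.26 in sham shControl, 14.04, 14.05 and 13.88 in TAC shControl, 14.36, 14.45 and 14.31 in sham shUhrf1 and 14.12, 13.96 and 13.96 in TAC shUhrf1. It too had all 6 TAC arrays below all 6 sham arrays. Etfa passed over both hairpins (-0.32 ± 0.08, adjusted p = 0.0155) and in neither hairpin alone. Etfdh, the oxidoreductase that receives the electrons, was at -0.30 ± 0.15 and -0.26 ± 0.15, and a dimmer probe of it passed as lower over both hairpins.

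The promoter window of Etfb, from 250 bases before to 50 after its start, is shown because the gene fell in both hairpins on both of its probes and because the protein that the hairpin targets recognises methylated CG dinucleotides, which are in capitals. It lies at chr7:43443822-43444121 on the plus strand of GRCm38.p6 in the RefSeq annotation and holds 16 CG dinucleotides. DNA methylation is not part of these arrays.
Etfb: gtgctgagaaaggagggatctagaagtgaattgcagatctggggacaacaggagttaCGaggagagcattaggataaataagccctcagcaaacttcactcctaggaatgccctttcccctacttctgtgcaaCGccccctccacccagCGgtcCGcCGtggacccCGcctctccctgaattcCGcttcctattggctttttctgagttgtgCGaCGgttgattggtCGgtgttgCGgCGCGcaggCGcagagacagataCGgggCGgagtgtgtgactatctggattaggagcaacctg

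**Figure D2:**
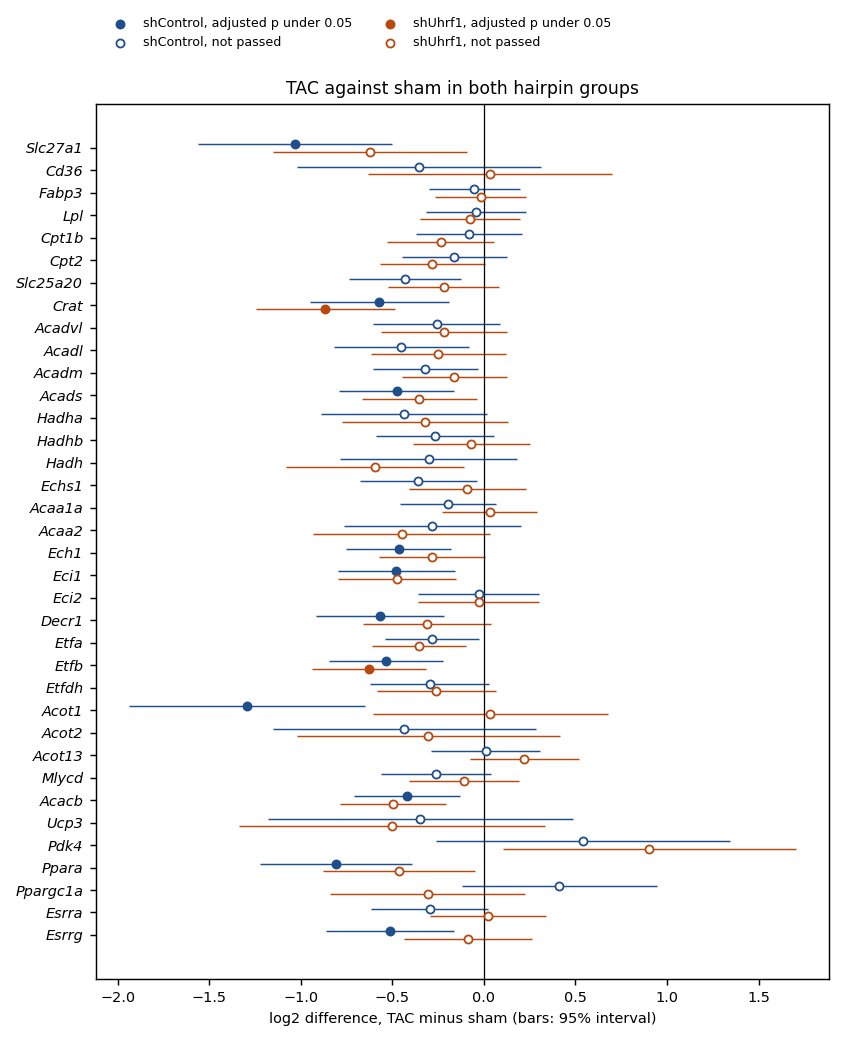
Log2 difference between TAC and sham for each measured member after quantile normalization, with the 95% interval, in shControl and in shUhrf1 cells; filled points passed at an adjusted p under 0.05. In shControl 33 of 36 points lie below 0 and 11 are filled, and in shUhrf1 30 lie below 0 and 2 are filled.

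Of the thioesterases, which split acyl-CoA back to free fatty acid, Acot1 fell most of all members in shControl. Acot1, the cytosolic enzyme, read 10.12, 10.26 and 10.47 in sham shControl, 9.26, 9.61 and 8.09 in TAC shControl, 9.50, 10.03 and 9.89 in sham shUhrf1 and 9.93, 9.72 and 9.87 in TAC shUhrf1. TAC shControl array 3 was the lowest of the 12, and with shUhrf1 the TAC arrays lay among the sham arrays. The sham shUhrf1 arrays also lay below the sham shControl arrays, as for 10.4% of all genes, with means of 9.81 and 10.28. The difference between the responses therefore holds a difference between the sham groups as well. The difference was -1.29 ± 0.30 in shControl (adjusted p = 0.0109) and 0.03 ± 0.30 in shUhrf1 (adjusted p = 0.962). The responses differed by 1.33 ± 0.42, with an interval of 0.42 to 2.24 before adjustment over all probes, and this did not pass (adjusted p = 0.326). Without TAC shControl array 3 the shControl difference was -0.85 (adjusted p = 0.0208) and the responses differed by 0.88. The other kept Acot1 probe fell by 0.98 in shControl (adjusted p = 0.0418) and was at -0.26 ± 0.31 in shUhrf1, and there the responses differed by 0.72 ± 0.43 (adjusted p = 0.633).

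Acot2, the mitochondrial enzyme, is a close relative of Acot1, and probe sequences were not used here, so it is uncertain how far their signals are separate. Acot2 read 7.73, 8.80 and 8.82 in sham shControl, 8.07, 8.58 and 7.38 in TAC shControl, 8.45, 8.80 and 8.33 in sham shUhrf1 and 8.19, 8.63 and 7.85 in TAC shUhrf1. Its groups overlapped, at -0.43 ± 0.33 and -0.30 ± 0.33. Acot13, a further member of the class, was at 0.01 ± 0.14 and 0.22 ± 0.14.

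The promoter windows of Acot1 and Acot2 are shown together because the genes are neighbours, with windows that start 21641 bases apart, and Acot1 passed in the TAC comparison in shControl while Acot2 did not. A difference between the genes was not tested. Aligned, the windows were identical at 56.8% of aligned bases. Acot1 lies at chr12:84009252-84009551 and Acot2 at chr12:83987611-83987910, both on the plus strand of GRCm38.p6 (RefSeq), with 9 and 10 CG dinucleotides in capitals.
Acot1: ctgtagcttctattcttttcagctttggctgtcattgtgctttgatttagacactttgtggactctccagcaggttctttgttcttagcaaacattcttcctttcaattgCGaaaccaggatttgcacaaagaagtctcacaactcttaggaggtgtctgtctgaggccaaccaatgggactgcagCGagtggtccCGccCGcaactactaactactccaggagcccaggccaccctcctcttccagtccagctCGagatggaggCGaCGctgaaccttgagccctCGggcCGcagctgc
Acot2: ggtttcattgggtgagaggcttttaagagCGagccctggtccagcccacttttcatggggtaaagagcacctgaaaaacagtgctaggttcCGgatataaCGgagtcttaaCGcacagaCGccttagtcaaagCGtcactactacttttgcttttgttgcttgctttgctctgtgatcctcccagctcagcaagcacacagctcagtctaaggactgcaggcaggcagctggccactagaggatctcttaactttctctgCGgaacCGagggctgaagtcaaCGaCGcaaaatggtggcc

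Malonyl-CoA blocks the carnitine palmitoyltransferase of the outer membrane, and 2 members set its level. Acacb, the mitochondrial acetyl-CoA carboxylase that makes it, read 11.09, 11.11 and 11.04 in sham shControl, 10.70, 10.71 and 10.58 in TAC shControl, 10.89, 11.25 and 10.96 in sham shUhrf1 and 10.67, 10.52 and 10.41 in TAC shUhrf1. All 6 TAC arrays lay below all 6 sham arrays. Acacb fell by 0.42 in shControl (adjusted p = 0.0479), lay just outside the threshold in shUhrf1 at -0.50 ± 0.13 (adjusted p = 0.0507), and fell by 0.46 over both (adjusted p = 0.00425). Mlycd, the decarboxylase that removes malonyl-CoA, was at -0.26 ± 0.14 and -0.11 ± 0.14.

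Pdk4, the kinase that turns off pyruvate dehydrogenase and so favours fat over glucose, had TAC differences above 0 that did not pass. It read 11.30, 11.89 and 12.73 in sham shControl, 12.62, 12.57 and 12.35 in TAC shControl, 11.32, 11.46 and 11.78 in sham shUhrf1 and 13.34, 12.07 and 11.86 in TAC shUhrf1. TAC arrays lay above sham arrays in shUhrf1, with array 1 the highest, and overlapped them in shControl. The differences were 0.54 ± 0.37 and 0.90 ± 0.37, and neither passed (adjusted p = 0.344 and 0.175). Single arrays weighed heavily: without TAC shUhrf1 array 1 the shUhrf1 difference was 0.45, and the shControl difference was 0.20 without sham shControl array 1 and 0.92 without sham shControl array 3. Ucp3, a mitochondrial carrier named for uncoupling, read 6.97, 6.58 and 7.49 in sham shControl, 7.12, 7.13 and 5.74 in TAC shControl, 6.59, 7.28 and 7.51 in sham shUhrf1 and 7.18, 6.52 and 6.18 in TAC shUhrf1. Its groups overlapped, at -0.35 ± 0.39 and -0.50 ± 0.39.

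Among the receptors, Ppara and Esrrg fell with TAC in shControl. Ppara, the fatty acid sensing receptor, read 5.96, 6.23 and 6.29 in sham shControl, 5.33, 5.27 and 5.45 in TAC shControl, 6.13, 5.85 and 5.46 in sham shUhrf1 and 5.34, 5.66 and 5.04 in TAC shUhrf1. The TAC arrays lay below the sham arrays in shControl and overlapped them in shUhrf1. Its TAC values lay close to the lowest detected signal of an array, which was 4.97 to 5.45. Ppara fell by 0.81 ± 0.19 in shControl (adjusted p = 0.013) and was at -0.46 ± 0.19 in shUhrf1 (adjusted p = 0.179). With no background correction the shControl fall was 0.32, and in the values processed by the authors it was 0.17, both still past the threshold. It did not pass without sham shControl array 3 (adjusted p = 0.0519).

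Esrrg, an orphan receptor of oxidative tissues, read 8.79, 8.84 and 9.04 in sham shControl, 8.66, 8.07 and 8.41 in TAC shControl, 8.90, 8.87 and 9.13 in sham shUhrf1 and 8.77, 8.96 and 8.91 in TAC shUhrf1. The TAC shControl arrays were the 3 lowest of the 12. Esrrg fell by 0.51 in shControl (adjusted p = 0.0445) and was at -0.09 ± 0.16 in shUhrf1, and its other kept probe fell by 0.59 in shControl (adjusted p = 0.0185). The responses differed by 0.42 with a 95% interval of -0.07 to 0.92, which did not pass (adjusted p = 0.59).

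Esrra, a related receptor, read 11.07, 10.88 and 11.07 in sham shControl, 10.84, 10.59 and 10.70 in TAC shControl, 10.60, 10.998 and 10.92 in sham shUhrf1 and 10.71, 10.86 and 11.01 in TAC shUhrf1. It was lower on the TAC arrays in shControl without passing (-0.30 ± 0.15) and at 0.02 ± 0.15 in shUhrf1, and its other kept probe passed as lower over both hairpins. Ppargc1a, the coactivator of these receptors, read 10.72, 11.41 and 10.91 in sham shControl, 11.35, 11.40 and 11.53 in TAC shControl, 11.48, 11.01 and 10.71 in sham shUhrf1 and 11.14, 10.84 and 10.29 in TAC shUhrf1. Its TAC difference was 0.41 ± 0.25 in shControl and -0.31 ± 0.25 in shUhrf1, opposite in sign, and the difference between them did not pass (-0.72 ± 0.35, adjusted p = 0.544).

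**Figure D3:**
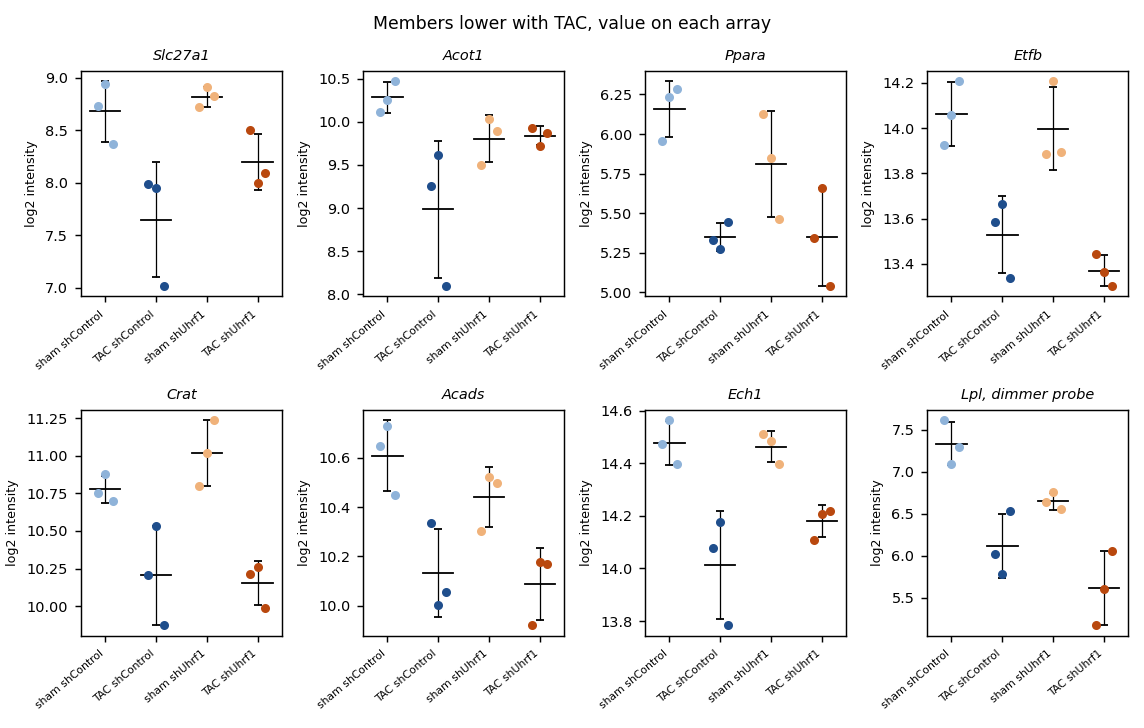
Log2 intensity on each array (points) by group for 7 members that fell with TAC in shControl cells and for the dimmer Lpl probe, with the group mean (line) and SD (bar, n = 3). The TAC shControl points lie below the sham shControl points in all 8 panels, and in the Acot1 panel the shUhrf1 means are 9.81 after sham surgery and 9.84 after TAC.

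Whether the hairpin changed the TAC response was tested directly as the difference between the responses. Of the 36 members 0 passed, as did 0% of all genes, and limma gave 1 member, Acot1, and 866 of all genes an unadjusted p under 0.05. The members' differences ran from -0.72 to 1.33 with a median of 0.13, against 0.03 over all genes, and 24 of 36 lay above 0. The 95% interval held 0 for 35 of the 36. The 9 members that fell in shControl and not in shUhrf1 are therefore not shown to respond differently. Of the 11 endothelial markers 0 passed in the same test, but 11 lay below 0, 10 had an unadjusted p under 0.05 and the median was -1.45.

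Between hairpins, without TAC, 0 members passed, against 0.0457% of all genes, and 3 members had an unadjusted limma p under 0.05, against 1154 of all genes. The median difference was 0.07 over the members and -0.0028 over all genes, and 4 members lay higher on all shUhrf1 arrays, or 11.1%, against 10.2% of all genes, and 2 lower, against 10.4%. After TAC 0 members passed, against 2.89% of all genes, made up of 1.53% higher and 1.36% lower. An unadjusted limma p under 0.05 was reached by 9 members and 1692 of all genes. The median was 0.16 against 0.01, and 10 members lay higher on all shUhrf1 arrays, or 27.8%, against 13.2% of all genes. These 10 were Slc27a1, Slc25a20, Acadl, Acadm, Hadhb, Echs1, Acaa1a, Acot1, Mlycd and Esrrg, and 1 member, Ppargc1a, lay lower on all shUhrf1 arrays (-0.67 ± 0.25, adjusted p = 0.155), as did 10.7% of all genes. Endothelial markers moved with this comparison: all 11 lay lower with shUhrf1 after TAC, 3 of them passed, and the median was -1.34. Those 3 were Cldn5 at -1.61 ± 0.25 (adjusted p = 0.0138), Cdh5 at -1.62 ± 0.32 (adjusted p = 0.0247) and Tie1 at -1.13 ± 0.25 (adjusted p = 0.0362). Of 9 fibroblast and 8 smooth muscle and pericyte markers 0 passed, with medians of -0.36 and -0.44 and unadjusted limma p under 0.05 for 3 of each. The 3 fibroblast markers differed in direction, with Thy1 at -1.10, Col1a1 at -0.62 and Col3a1 at 0.73. The part of the endothelial and other markers in the members' values was not tested.

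Averaged over both surgeries, 4.38% of all genes changed with shUhrf1, 3.1% upward and 1.28% downward. Of the members Hadhb and Cd36 were past the threshold upward and 0 downward. Cd36 was kept through its shUhrf1 arrays, where it is higher, so Hadhb is the only call made here on the brightest probes. On those, 1 of 36 members is no larger a share than that of all genes. Of the 27 other kept probes of members, 5 were past the threshold upward and 0 downward, against the same shares of all genes. They were probes of Acadl, Hadh, Etfdh and Etfa, the last with both of its other kept probes. Probes of a gene are not independent, and the Hadh probe was near the detection limit. Hadhb, the beta subunit of the trifunctional protein, read 13.48, 13.53 and 13.49 in sham shControl, 13.28, 13.39 and 13.02 in TAC shControl, 13.95, 14.07 and 13.65 in sham shUhrf1 and 13.68, 13.89 and 13.90 in TAC shUhrf1. All 6 shUhrf1 arrays lay above all 6 shControl arrays, as for 1.81% of all genes, while no member lay below on all 6, as for 0.709%. Hadhb rose by 0.49 ± 0.10 (adjusted p = 0.0213), at 0.39 ± 0.15 in sham cells and 0.59 ± 0.15 after TAC, where it was the member nearest the threshold (adjusted p = 0.0521). Hadha, its partner subunit, was at -0.01 ± 0.21 and 0.10 ± 0.21 in the same comparisons. Its only probe was dim, with a mean of 6.11, so whether Hadha followed Hadhb is uncertain, and the difference between the genes was not tested. Cd36 was at 0.85 ± 0.22 over both surgeries, a description of values near the detection limit that were past the threshold in 7 of 19 alternatives. In the values processed by the authors its difference was 0.15. Among the markers, Cldn5 was lower with shUhrf1 (-0.89 ± 0.18, adjusted p = 0.0168) and the cardiomyocyte genes Pln and Ryr2 were higher, by 0.64 ± 0.12 (adjusted p = 0.0123) and 0.46 ± 0.10 (adjusted p = 0.019), and their part was not tested.

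The Hadhb call was close to the threshold. With Cd36 counted, 0 members were past it without TAC shUhrf1 array 3 and 3 without TAC shUhrf1 array 1. Hadhb did not pass without sham shControl array 3 (adjusted p = 0.0516), sham shUhrf1 array 2 (0.0536) or TAC shUhrf1 array 3 (0.0514).

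Hadh and Eci2 came next without passing, at 0.51 ± 0.16 and 0.34 ± 0.11 over both surgeries (adjusted p = 0.0829 and 0.0862). Hadh read 7.26, 7.98 and 7.37 in sham shControl, 7.42, 7.27 and 7.02 in TAC shControl, 8.40, 8.42 and 7.76 in sham shUhrf1 and 7.40, 7.57 and 7.81 in TAC shUhrf1, so that sham shUhrf1 arrays 1 and 2 stood highest. Of 27 dimmer kept probes, 4 were past the threshold as higher with shUhrf1 after TAC, against 1.53% of all genes. These were probes of Acadl, Hadh, Etfa and Etfdh, by 1.14 ± 0.26, 0.99 ± 0.20, 0.61 ± 0.15 and 1.31 ± 0.26. The Hadh probe was detected on 6 of 12 arrays at a mean of 5.33, so its value is a description near the detection limit. Acadl and Etfdh also had dimmer probes detected on only 9 and 8 arrays, and a probe may be kept through arrays where it is high. Other probes of the same genes were mixed. After TAC the brightest Etfa probe was at 0.03, and a further Etfdh probe at -0.56 ± 0.20. The brightest probes of Acadl, Hadh and Etfdh had higher means with shUhrf1 without passing. These were 10.84 against 10.39, 7.60 against 7.24 and 12.17 against 11.95. Over the 27 kept probes that do not represent their gene, 14 had the sign of the brighter probe in this comparison, while all 27 did for TAC in shControl.

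The windows of Hadhb and Hadha run in opposite directions from start sites 273 bases apart and share 228 bases. The Hadhb window is shown because the gene was higher on all shUhrf1 arrays. It lies at chr5:30155003-30155302 on the plus strand of GRCm38.p6 (RefSeq) and holds 24 CG dinucleotides, in capitals.
Hadhb: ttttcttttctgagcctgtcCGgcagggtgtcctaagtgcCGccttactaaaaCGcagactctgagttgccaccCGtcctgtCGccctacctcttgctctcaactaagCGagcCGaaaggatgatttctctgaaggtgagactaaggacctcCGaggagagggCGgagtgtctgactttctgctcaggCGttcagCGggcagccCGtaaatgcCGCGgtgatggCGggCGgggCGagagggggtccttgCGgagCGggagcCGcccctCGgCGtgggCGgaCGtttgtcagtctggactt

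**Figure D4:**
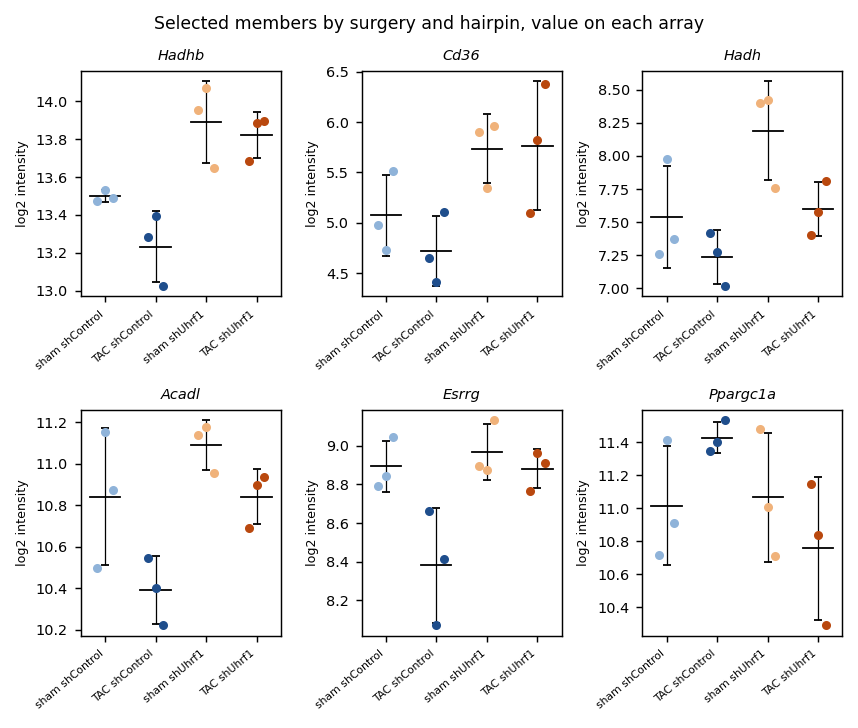
Log2 intensity on each array (points) by group for 6 members, with the group mean (line) and SD (bar, n = 3). For Hadhb every shUhrf1 point lies above every shControl point, while for Cd36 and Hadh the hairpins overlap.

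Promoter windows were found for 34 of the 40 members. They held a median of 16 CG dinucleotides, with a range of 1 to 55, against 7 over all 32851 windows, and a GC content of 60.3% against 52.7%. In this paragraph all genes are the 27025 with a window, whether kept on the arrays or not, and the kept genes alone were not compared. The hexamer AGGTCA, the core bound by many nuclear receptors, was found on either strand in 8 of the 34 members, or 23.5%, against 18.1% of all genes. Of 9 members that fell with TAC in shControl and have a window, 1 held it, Acacb. The direct repeat of 2 such hexamers with 1 base between, each free at the fourth base, which is bound by Ppara with its retinoid partner, was found in 0 members and 0.451% of all genes, and the extended form TNAAGGTCA, bound by Esrra and Esrrg, in 0 members and 1.43% of all genes. A match is a description of letters in this window and not a site of binding.

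Other pathways of mitochondrial fuel use were counted from lists of named genes. The shares of all genes beside these counts were 7.47% lower and 11.4% higher with TAC in shControl. They were 1.59% lower and 3.96% higher with TAC in shUhrf1, and 1.53% higher and 1.36% lower with shUhrf1 after TAC. Of 18 measured genes for ketone body and branched-chain amino acid oxidation, 8 fell and 0 rose with TAC in shControl, with a median of -0.47, and 3 fell in shUhrf1, with a median of -0.43. Ppm1k, the phosphatase that activates branched-chain ketoacid dehydrogenase, fell by 0.78 ± 0.15 in shControl (adjusted p = 0.00461) and by 0.80 ± 0.15 in shUhrf1 (adjusted p = 0.0132). Mccc2, a carboxylase subunit of leucine breakdown, fell by 0.75 and 0.84, and Bcat2, the mitochondrial branched-chain transaminase, by 0.79 and 0.68. After TAC, Aldh6a1 and Acadsb of valine and isoleucine breakdown were higher with shUhrf1, by 1.09 ± 0.19 (adjusted p = 0.016) and 0.75 ± 0.17 (adjusted p = 0.0395).

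A list of 20 genes held the tricarboxylic acid cycle together with pyruvate dehydrogenase and its kinase Pdk2. Of these, 2 fell in shControl, Sdhc and Suclg2, each by 0.51, and 1 in shUhrf1, the kinase Pdk2, by 0.87. After TAC 3 were higher with shUhrf1, Idh2 by 0.84, Sdhd by 0.86 and Dld by 1.20. Of 11 measured peroxisomal oxidation genes 0 passed in either TAC comparison, at unadjusted p under 0.05 for 2 in shControl and 1 in shUhrf1, with medians of -0.28 and -0.18. Among them Acox2, Ehhadh and Hacl1 were not detected in either shControl group, though they enter these counts and medians. Of 17 genes of triacylglycerol storage and lipolysis, Mgll rose by 0.95 and Dgat2 fell by 0.52 in shControl, and 0 passed in shUhrf1.

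Of 17 measured lipid-sensing receptors and coregulators outside the members, 3 fell and 1 rose in shControl. Rxrg, a retinoid receptor, fell by 0.77 (adjusted p = 0.00581), and Pparg, the receptor best known from fat cells, rose by 0.92 (adjusted p = 0.0128). Of 12 further uptake and activation genes, Acsl6 fell by 1.32, while Cav1, Acsl5 and Gpihbp1 rose by 2.55, 1.74 and 2.42. Cav1 and Gpihbp1 are abundant in endothelial cells, whose markers rose in the same comparison.

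Markers of other cells moved with the TAC comparison in shControl, in which the members fell. Of 9 measured fibroblast markers 9 rose in shControl and 5 in shUhrf1, with medians of 2.45 and 1.62, and of 11 endothelial markers 10 and 1 rose, with medians of 1.66 and 0.08. Col1a1, Col1a2, Col3a1 and Tcf21 were detected on 0 of 3 sham shControl arrays and were kept through the TAC arrays, where they are high. The fibroblast counts and medians are thus partly set by the filter. Tie1 and the pericyte marker Pdgfrb were also undetected in sham shControl. Of 9 macrophage markers 3 rose in each. Of 8 smooth muscle and pericyte markers 4 rose in shControl, among them Rgs5 by 2.09, Mylk by 1.20 and Des by 0.54, while in shUhrf1 Des rose by 0.82 and Smtn fell by 0.67. Of 2 red blood cell markers 0 passed in either, with none at an unadjusted p under 0.05. Summed over each list as the mean log2 deviation per array, fibroblast markers ran from -1.43 to -0.92 in sham shControl and from 0.95 to 1.51 in TAC shControl, endothelial markers from -0.66 to -0.42 and from 0.52 to 1.42, and smooth muscle and pericyte markers from -0.29 to -0.14 and from 0.10 to 0.69. TAC shControl array 3 was the highest of its group for these 3 lists and the lowest of the 12 for the members. In shUhrf1 fibroblast markers ran from -1.60 to -0.57 after sham surgery and from 0.47 to 1.21 after TAC, and endothelial markers from -1.18 to 0.19 and from -0.39 to 0.02. The part of these markers in the members' result was not tested.

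Of the 11 cardiomyocyte markers 0 passed with TAC within either hairpin, with 1 and 3 at an unadjusted limma p under 0.05 and medians of 0.02 and -0.01. Over both hairpins Tnni3, cardiac troponin I, fell by 0.36 (adjusted p = 0.0369). In shUhrf1 Tnni3 was at -0.54 ± 0.16 and Actc1, cardiac actin, at -0.55 ± 0.16, farther below 0 than the members' median there, and neither passed (adjusted p = 0.0754 and 0.067). With every array shifted to an equal mean of these markers, 12 members fell in shControl and 1 in shUhrf1. Of 8 adipocyte markers with a probe, Adig alone was kept, and it was lower on TAC shControl arrays, where it was not detected. The other 7, Adipoq and Plin1 among them, were detected on 0 arrays.

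**Figure D5:**
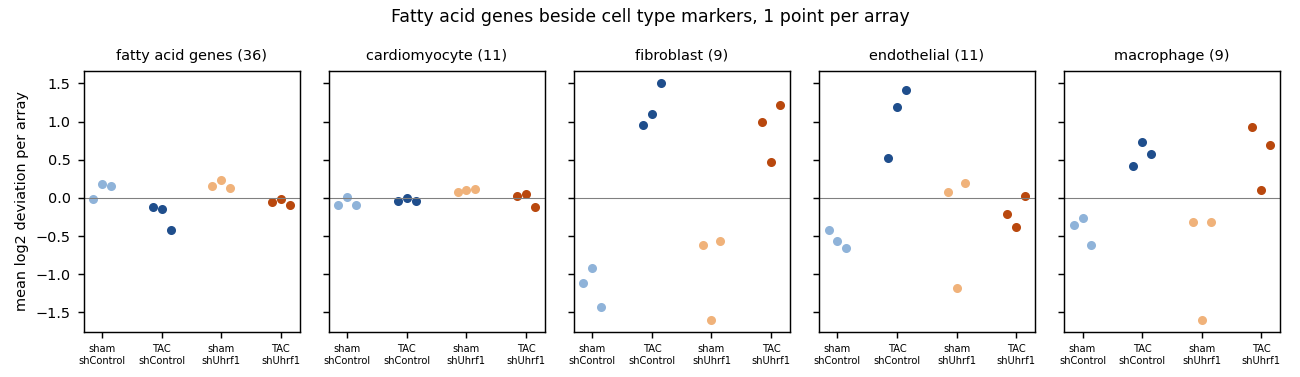
Mean log2 deviation per array of the 36 members and of the cardiomyocyte (11), fibroblast (9), endothelial (11) and macrophage (9) markers, by group. The members are lowest on TAC shControl array 3, at -0.42, where fibroblast markers stand at 1.51 and endothelial markers at 1.42.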

How the data were processed

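The values were linear bead intensities that the authors deposited without normalization, 1 per probe and array, and no subtraction of background is apparent. Each comes with a detection p-value, per the file headers. A second table by the authors, of log2-like values normalized between arrays, served as an alternative, and the submitters' processing notes name lumi without its settings.

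Groups were taken from the sample titles. Gene symbols came from GEO's annotation of the platform, which can be old: 34885 of 45281 probes had 1 symbol, 18 several and 10378 none. Intensities were corrected with neqc of limma 3.58.1 in R 4.3.3 (background from the detection p-values, offset 16, quantile normalization, log2). A probe was kept when its detection p was under 0.01 on 3 or more arrays. All 12 arrays were fitted with 1 mean per group (lmFit, eBayes, Benjamini-Hochberg), a design tested on simulated data. The number of arrays limits the precision.

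Values on every array are given for members that passed in any comparison and for a fixed set of named members, and up to 4 genes with the smallest p are named from each other list. Hadh and the dimmer Lpl probe were given by array after their values were seen. The members and lists were chosen with earlier results of these data known. Alternatives changed the background correction, scaling, filter, probe choice, groups fitted and replicate block, used the authors' values, or left out 1 array. Deviations of same-numbered arrays from their group means correlated weakly: of 18 pairs 4 correlated over 0.1, with a range of -0.157 to 0.254. Pairs with different numbers were not set beside them, so whether the number marks a shared batch was not tested. Promoter windows came from RefSeq, GRCm38.p6.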

Additional observations from a re-analysis of the deposited data

How the results depend on the processing

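Every count of members that passed kept its direction unless named here. For TAC in shControl the 11 became 4 with arrays scaled by their median and 3 with the compared groups alone in the fit, and ran from 3 to 11 when 1 array was left out. For TAC in shUhrf1 the 2 became 5 with no background correction and with the authors' value table, 1 with equal cardiomyocyte markers, 1 with the compared groups alone and, with median scaling, 1 that was higher, Pdk4 at 1.33 (adjusted p = 0.00971). Leaving out 1 array gave 0 to 2. For shUhrf1 after TAC the 0 became 4 higher with median scaling (Slc27a1, Cd36, Hadhb and Acot1), and 1 with no background correction, with the authors' table and with the mean of a gene's probes, each time Hadhb, and 0 to 1 without 1 array. Over both hairpins the 13 became 3 lower and 1 higher, 4 in all, with median scaling, and 10 to 15 without 1 array. Over both surgeries the 2, Cd36 counted, became 0 with equal cardiomyocyte markers, 4 with the mean of probes and 1 with no filter on dim probes, and 0 to 3 without 1 array. The count stayed 0 for shUhrf1 in sham cells and for the difference between responses in every alternative. Median scaling put the median of all genes at 0.19 and 0.45 in the TAC comparisons of shControl and shUhrf1, and at 0.28 for shUhrf1 after TAC. The cause of these shifts was not tested.

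With the replicate number as a block the counts were 9 and 2 for TAC in shControl and shUhrf1, 0 in sham cells, 1 (Cd36) for shUhrf1 after TAC, 0 for the difference between responses, 11 over both hairpins and 2 over both surgeries. The arrays share only a number, so this is not a paired analysis. Signal over background limits Cd36, Ppara and Hadha, and 3 arrays per group limit every test.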
